A study of Homo sapiens with 8 samples.

Results

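The 9 genes examined here encode enzymes that make NADPH or that carry the pentose phosphate pathway: PGLS, PGD, TKT, TALDO1, RPIA, RPE, ME1, IDH1 and NNT. They were taken by gene symbol from 49733 gene IDs in the deposited tables, of which 26741 had a count in any library and 14746 had enough counts to be tested. A count was recorded for 8 of the 9 genes, and those 8 were tested. The cells were HepG2, 1 established hepatocellular carcinoma line grown in minimal essential medium with serum. Near confluence they received fresh medium that carried benzo[a]pyrene (BaP) at 2 µM or the solvent DMSO at 0.5% (vehicle). Cells were taken after 12 h or 24 h, which gave the groups vehicle 12 h, BaP 12 h, vehicle 24 h and BaP 24 h, each with 2 libraries of poly-A RNA from independent experiments. No group carried a genetic change, and each time point had vehicle libraries of its own. The question put to these genes was whether the RNA for NADPH supply changed in cells exposed to BaP.

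The pentose phosphate pathway branches from glycolysis at glucose 6-phosphate. Its oxidative branch reduces NADP to NADPH and ends at ribulose 5-phosphate, and its non-oxidative branch interconverts sugar phosphates so that carbon can return to glycolysis or serve nucleotide synthesis. NADPH drives reductive synthesis, keeps glutathione and thioredoxin reduced, and supplies electrons to cytochrome P450 reductase, so that in liver cells it serves both lipid synthesis and the oxidation of foreign compounds such as BaP. Several genes of the pathway are known targets of NRF2, a transcription factor that responds to electrophiles and oxidants, while BaP itself is a ligand of the aryl hydrocarbon receptor (AHR).

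The promoters of the 9 genes were read for short motifs, since 2 of these genes rose with BaP and 1 fell. The 250 bases before each RefSeq start site (assembly GRCh38.p14) were found for all 9 genes, in 11 windows because IDH1 and NNT each have 2 starts. Motifs were searched on both strands: TGACNNNGC and TGAGNNNGC, the core of the antioxidant response element that NRF2 binds, GCGTG, the core of the element that AHR binds, and GGGCGG, the box of Sp1. TGACNNNGC was in 4 of the 11 windows and in 10.9% of all 35116 windows, and TGAGNNNGC was in 2 of 11 and in 14.8% of all. GCGTG was in 5 of 11 (32.2% of all) and GGGCGG in 10 of 11 (42.6% of all). The stretches below show the TGACNNNGC matches in capitals, and that of TALDO1 is shown because the gene rose at both times and its window held neither form.
PGD, chr1:10398838-10398896, plus strand, 226 to 168 bases before the start, the motif on the opposite strand: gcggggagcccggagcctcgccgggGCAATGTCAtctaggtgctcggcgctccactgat
TALDO1, chr11:747214-747314, plus strand, 250 to 150 bases before the start, no match: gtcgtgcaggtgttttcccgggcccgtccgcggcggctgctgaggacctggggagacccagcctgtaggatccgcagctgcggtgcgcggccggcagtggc
IDH1, chr2:208255181-208255239, minus strand, 168 to 110 bases before the second start: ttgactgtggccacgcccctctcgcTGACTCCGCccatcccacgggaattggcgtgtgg
ME1, chr6:83431155-83431213, minus strand, 162 to 104 bases before the start: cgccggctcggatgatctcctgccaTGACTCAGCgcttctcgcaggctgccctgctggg
RPE, chr2:210002462-210002520, plus strand, 176 to 118 bases before the start: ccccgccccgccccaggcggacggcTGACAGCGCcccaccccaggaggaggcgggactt
In PGD the match lay 201 to 193 bases before the start, and in ME1 it lay at 137 to 129. In RPE it lay at 151 to 143, and in IDH1 at 143 to 135, where it overlapped a GGGCGG box on the opposite strand. A TGAGNNNGC match lay 68 to 60 bases before the second start of IDH1 and 142 to 134 bases before the second start of NNT. The TKT, TALDO1, PGLS and RPIA windows held no match to either form. A match describes the letters of a window and is no measure of binding.

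Total estimated counts per library ran from 2592272 (BaP 24 h replicate 1) to 16533490 (BaP 24 h replicate 2). In the shallowest library the tested genes held between 33 estimated counts (RPIA) and 1299 (TKT). Across the 7299 genes of at least moderate level, the SD of the log2 difference between the 2 libraries of a group was 0.25 for vehicle 12 h, 0.17 for BaP 12 h, 0.18 for vehicle 24 h and 0.32 for BaP 24 h. The hepatocyte markers ALB, AFP, APOA1, APOA2, FGB and AHSG summed to between 8822 and 15184 CPM (counts scaled to library depth) in every library, and 0 of 6 passed with BaP at either time. Of all genes tested 8.25% passed at 12 h and 5.3% at 24 h. The medians of these markers were -0.18 at 12 h and -0.33 at 24 h on the log2 scale. At 12 h 6 of 6 were below 0, and at 24 h 2 of 6 had an unadjusted p under 0.05 (ALB and AHSG). At 24 h DESeq2 called AHSG lower (-0.41, adjusted p = 0.036), and without BaP 24 h replicate 1 edgeR called APOA2 higher (0.49, adjusted p = 0.032). Of 6 markers of other cell types, PECAM1 matched no ID. PTPRC, VWF, COL1A2 and COL3A1 had between 0 and 5 counts per library, and CD68, listed here as a macrophage marker, was the 1 tested. In BaP 24 h, where CD68 stood at 53.9 ± 3.03 CPM, PTPRC of the same list held 0 counts in both libraries. The summed level of these markers was 37.3 to 41.1 CPM in vehicle 12 h, 42.4 to 46.9 in BaP 12 h, 36.6 to 37.8 in vehicle 24 h and 52.1 to 56.4 in BaP 24 h. CD68 rose at 24 h (log2 fold change 0.56, edgeR adjusted p = 0.019), a call lost in the fit to 4 libraries, with thinning (0.34, adjusted p = 0.42), and without BaP 24 h replicate 2 or either vehicle 24 h library (adjusted p between 0.16 and 0.19). Whether this bears on the changes at 24 h was not tested.

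The level of the 9 genes was compared between genes in TPM, the deposited length-corrected fraction scaled to the same total in each library. TKT stood first in every group, from 280 ± 23.8 TPM (mean ± SD, n = 2) in vehicle 12 h to 402 ± 59.3 in BaP 12 h. TALDO1, PGD and IDH1 followed. In vehicle 12 h PGD (149 ± 7.40 TPM) and TALDO1 (148 ± 4.57) could not be ordered, because their libraries overlapped, and IDH1 stood at 123 ± 9.62. PGLS (44.4 ± 8.36 TPM) and RPE (28.97 ± 2.43) came next, and RPIA (10.0 ± 0.637) and NNT (8.48 ± 0.513) were the lowest genes with counts. TALDO1 had the higher mean of the TALDO1 and PGD pair in the other 3 groups, and their libraries overlapped again in BaP 12 h. In BaP 24 h IDH1 (72.8 ± 4.08 TPM) overlapped PGLS (64.5 ± 15.01), and RPIA overlapped NNT. ME1 was last, with 0 counts in all 8 libraries. With the posterior mean fractions that the authors also deposited, RPIA and NNT exchanged places in every group except BaP 12 h. Summed over the 9 genes, the level was 791 ± 35.8 TPM in vehicle 12 h, 1070 ± 106 in BaP 12 h, 787 ± 6.51 in vehicle 24 h and 877 ± 160 in BaP 24 h. The 2 groups did not overlap at 12 h, and at 24 h BaP replicate 2 (764 TPM) lay below both vehicle libraries. In CPM, which is not corrected for length, the sum at 24 h was 1033 and 1076 with vehicle and 1207 and 1249 with BaP, so on that scale the groups did not overlap and BaP replicate 2 was the highest.

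**Figure D1:**
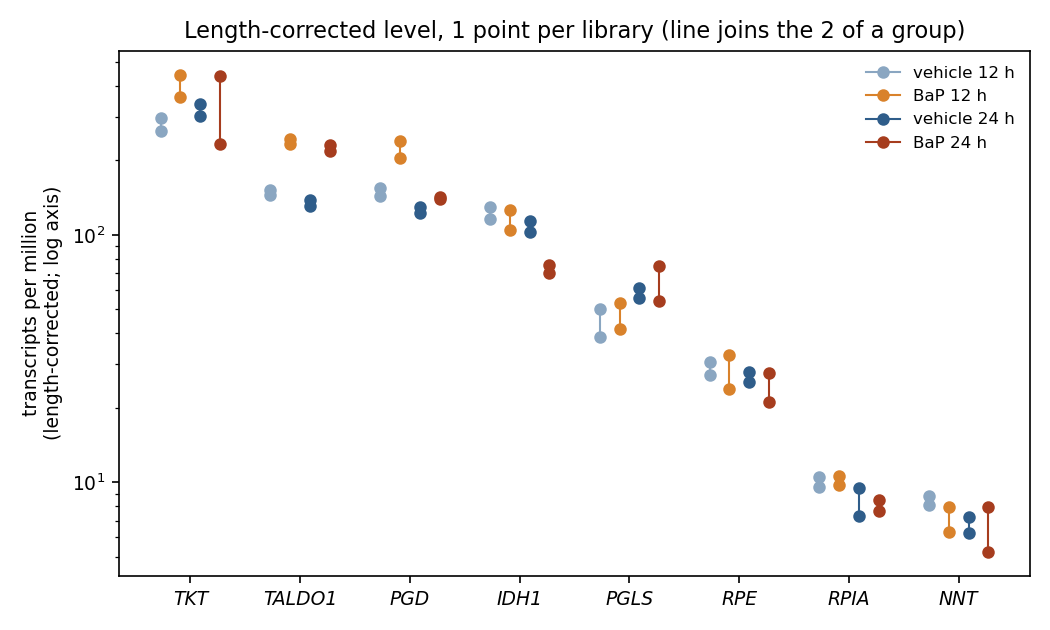
Length-corrected level (TPM, log axis) of the 8 genes with counts, 1 point per library, with a line joining the 2 libraries of a group. TKT is highest in all 4 groups (280 to 402 TPM as group means) and RPIA and NNT are lowest, and the TKT libraries of BaP 24 h lie furthest apart, at 233 and 438 TPM.

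The genes of the oxidative branch were PGLS and PGD. PGD (ENSG00000142657), which encodes 6-phosphogluconate dehydrogenase and makes the pathway's last NADPH, rose with BaP at 12 h. Its level was 211 and 200.2 CPM in the vehicle 12 h libraries and 277 and 318 in the BaP 12 h libraries. Both BaP libraries stood above both vehicle libraries, and the log2 fold change was 0.53 ± 0.13 (SE), a ratio of 1.45 (edgeR adjusted p = 0.013). At 24 h PGD stood at 180 and 188 CPM with vehicle and at 206 and 246 with BaP. The groups again did not overlap, but the log2 fold change of 0.30 ± 0.13 did not pass (adjusted p = 0.19). The 12 h call was lost without any 1 of the 4 libraries of that time, with an adjusted p of 0.053 without BaP replicate 1, 0.24 without BaP replicate 2, 0.055 without vehicle replicate 1 and 0.11 without vehicle replicate 2. Without BaP 24 h replicate 1 the 24 h value was 0.41 and passed (adjusted p = 0.036).

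PGLS (ENSG00000130313) encodes 6-phosphogluconolactonase, the step before PGD. Its level was 39.9 and 31.9 CPM in vehicle 12 h, 42.4 and 32.6 in BaP 12 h, 45.8 and 53.4 in vehicle 24 h, and 58.5 and 54.1 in BaP 24 h. The groups overlapped at 12 h and were apart by a small gap at 24 h. Neither comparison passed: the log2 fold change was 0.06 ± 0.15 at 12 h (95% interval -0.27 to 0.38) and 0.18 ± 0.16 at 24 h (-0.15 to 0.51). The 12 h intervals of PGLS and PGD (0.27 to 0.80) overlapped, and no test of the difference between the genes was run.

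In the non-oxidative branch TALDO1 (ENSG00000177156), the transaldolase gene, rose at both times. Its level was 162 and 161 CPM in vehicle 12 h and 251 and 257 in BaP 12 h. It was 152 and 154 CPM in vehicle 24 h and 228 and 312 in BaP 24 h. Every BaP library stood above every vehicle library, and in CPM the BaP 24 h pair was spread more widely than the other pairs. In TPM that pair lay at 217 and 231. The log2 fold change was 0.65 ± 0.13 at 12 h, a ratio of 1.57 (edgeR adjusted p = 0.0052), and 0.83 ± 0.14 at 24 h, a ratio of 1.78 (adjusted p = 0.0020). Single libraries ended each call: at 12 h the adjusted p was 0.056 without BaP replicate 1 and 0.072 without BaP replicate 2, and at 24 h it was 0.053 without vehicle replicate 1. The value itself ran from 0.62 to 0.67 at 12 h and from 0.57 to 1.02 at 24 h over the fits that left out 1 library. The upper end at 24 h came without BaP 24 h replicate 1 and the lower end without BaP 24 h replicate 2.

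TKT (ENSG00000163931) encodes transketolase, which works beside transaldolase and needs thiamine. Its level was 372 and 348 CPM in vehicle 12 h and 421 and 498 in BaP 12 h, with no overlap. At 24 h it was 344 and 389 CPM with vehicle and 487 and 389 with BaP, and the groups overlapped, since BaP replicate 2 lay between the vehicle libraries. TKT passed at neither time, with log2 fold changes of 0.35 ± 0.15 at 12 h (95% interval 0.05 to 0.66, edgeR adjusted p = 0.17) and 0.25 ± 0.15 at 24 h (-0.06 to 0.56, adjusted p = 0.36). Without BaP 24 h replicate 2 the 12 h adjusted p was 0.043.

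RPIA (ENSG00000153574) and RPE (ENSG00000197713) encode the isomerase and the epimerase that convert ribulose 5-phosphate at the entry of the non-oxidative branch. RPIA lay between 12.0 and 16.2 CPM over all 8 libraries, and RPE between 23.0 and 31.1. For both genes the BaP and vehicle libraries overlapped at both times. The log2 fold change of RPIA was -0.02 ± 0.16 at 12 h (95% interval -0.36 to 0.32) and 0.03 ± 0.18 at 24 h (-0.36 to 0.41). That of RPE was -0.04 ± 0.15 at 12 h (-0.36 to 0.28) and 0.06 ± 0.16 at 24 h (-0.29 to 0.41). Changes of the size seen for PGD at 12 h (0.53) or TALDO1 at either time lay outside these intervals, while those within the intervals were not resolved at this depth. No label or file header names the strand of counting, so reads of RPE and of KANSL1L, which overlaps it and held 14 to 113 counts per library, cannot be told apart where they share sequence. The annotation the authors used also placed a transcript now named for RPEL1 under RPE, with 0.737% of its count.

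**Figure D2:**
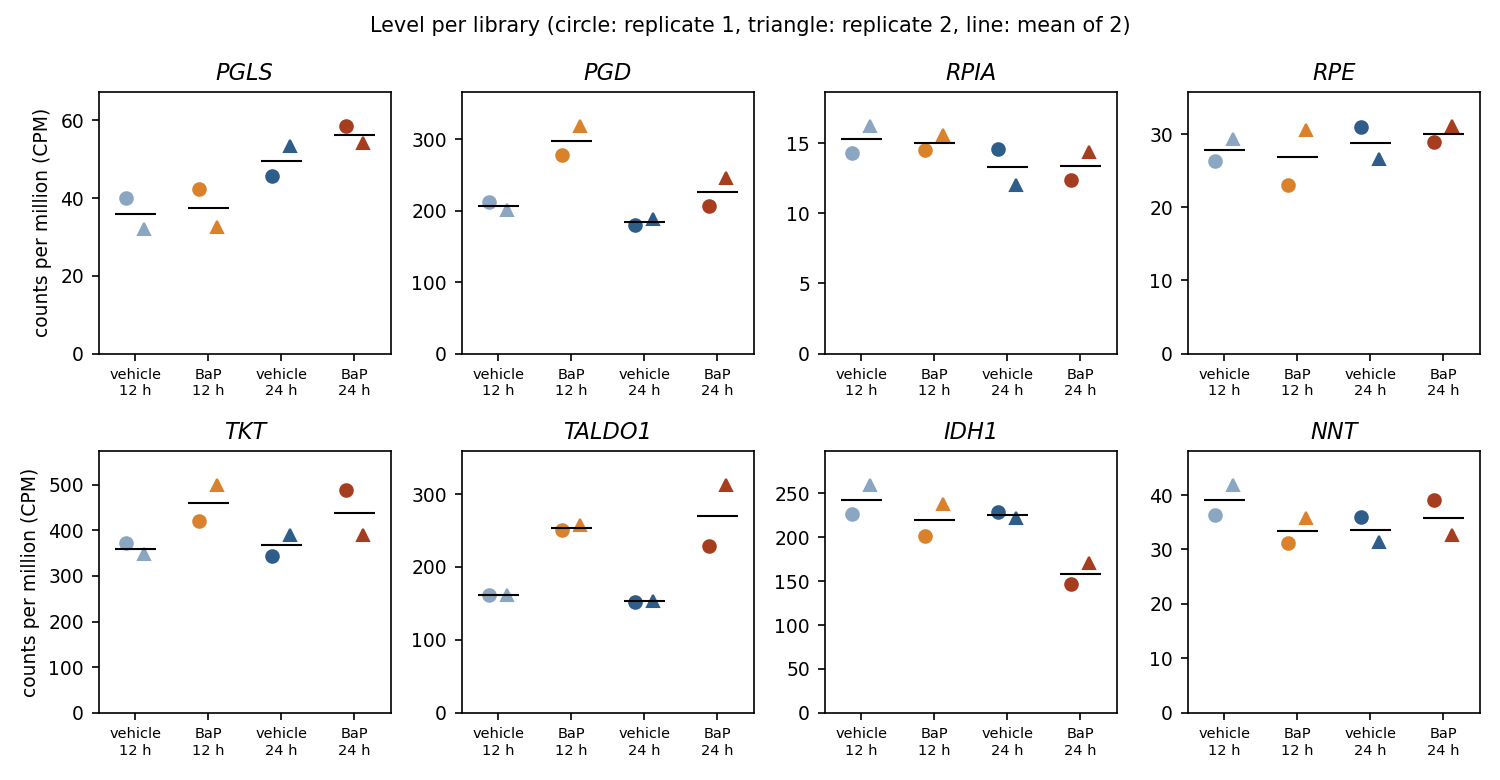
Level in CPM of the 8 genes with counts in each library (circle, replicate 1; triangle, replicate 2; line, mean of 2), each panel with its own axis from 0. Every BaP library of TALDO1 lies above every vehicle library, both IDH1 libraries of BaP 24 h lie below all others, and RPIA and RPE overlap between groups at both times.

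Outside the pathway, IDH1 (ENSG00000138413), the NADP-dependent isocitrate dehydrogenase of cytosol and peroxisome, fell at 24 h. Its level was 226 and 259 CPM in vehicle 12 h and 202 and 238 in BaP 12 h, and the groups overlapped. At 24 h it was 228 and 222 CPM with vehicle and 147 and 170 with BaP. Both BaP 24 h libraries stood below every other library of the series. The log2 fold change was -0.14 ± 0.13 at 12 h (edgeR adjusted p = 0.62) and -0.50 ± 0.13 at 24 h, a ratio of 0.709 (adjusted p = 0.037). In RNA from whole cultures, fewer cells that hold a transcript and less of it per cell cannot be told apart. The 24 h call was near the threshold and was lost without 5 single libraries. Without vehicle 24 h replicates 1 and 2 the value was -0.48 and -0.52, and without BaP 24 h replicate 1 it was -0.41. Without either BaP 12 h library it was -0.50. The BaP 12 h libraries are no part of that contrast and enter through the shared spread, the filter, the scaling and the adjustment. The 24 h call of IDH1 was lost as well in edgeR's fit to the 4 libraries of 24 h (adjusted p = 0.082) and with libraries thinned to the smallest total (0.064). The value ran from -0.62 to -0.41 in the fits that left out 1 library. The antisense transcript IDH1-AS1 held 2 to 18 counts per library, against at least 391 for IDH1.

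NNT (ENSG00000112992) encodes the transhydrogenase of the inner mitochondrial membrane, which makes NADPH from NADH with the proton gradient. Its level was 36.4 and 41.8 CPM in vehicle 12 h and 31.2 and 35.7 in BaP 12 h, which put both BaP libraries below both vehicle libraries by a small gap. At 24 h it was 36.0 and 31.3 CPM with vehicle and 39.0 and 32.7 with BaP, with overlap. NNT passed at neither time (log2 fold change -0.22 ± 0.14 at 12 h, edgeR adjusted p = 0.43, and 0.04 ± 0.15 at 24 h, adjusted p = 0.92). The antisense gene NNT-AS1 held 16 to 63 counts per library.

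ME1 (ENSG00000065833), the cytosolic malic enzyme that makes NADPH from malate, was not detected in any of the 8 libraries. The annotation gave it 1 transcript. A count of 0 allows up to 3 counts, which is 0.201 CPM in BaP 24 h replicate 2 and 1.13 CPM in BaP 24 h replicate 1, and this limit covers counting error only. It does not cover a loss of reads in alignment, assignment or annotation, which was not tested. With 0 counts ME1 entered no test. Its promoter held the TGACNNNGC form shown above, which 10.9% of all windows held. Its mitochondrial relatives differed from each other: ME2 ranged from 15.6 to 28.9 CPM, and ME3 held 2 counts in all over the 8 libraries.

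Of the 8 genes tested, 2 passed at 12 h, both higher (PGD and TALDO1), against 8.25% of all genes tested. At 24 h 2 passed, TALDO1 higher and IDH1 lower, against 5.3% of all genes. The median log2 fold change of the 8 genes was 0.02 at 12 h and 0.12 at 24 h, and that of all genes tested was 0.02 and 0.01. The count at 12 h was 0 without either BaP 12 h library and 1 without either vehicle 12 h library. At 24 h it was 0 without vehicle 24 h replicate 1, and it was 1 in the absence of vehicle 24 h replicate 2 or of either BaP 12 h library, in a fit to the 4 libraries of 24 h alone, and where every library was thinned to the smallest total. TALDO1 was the gene that passed at both times.

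**Figure D3:**
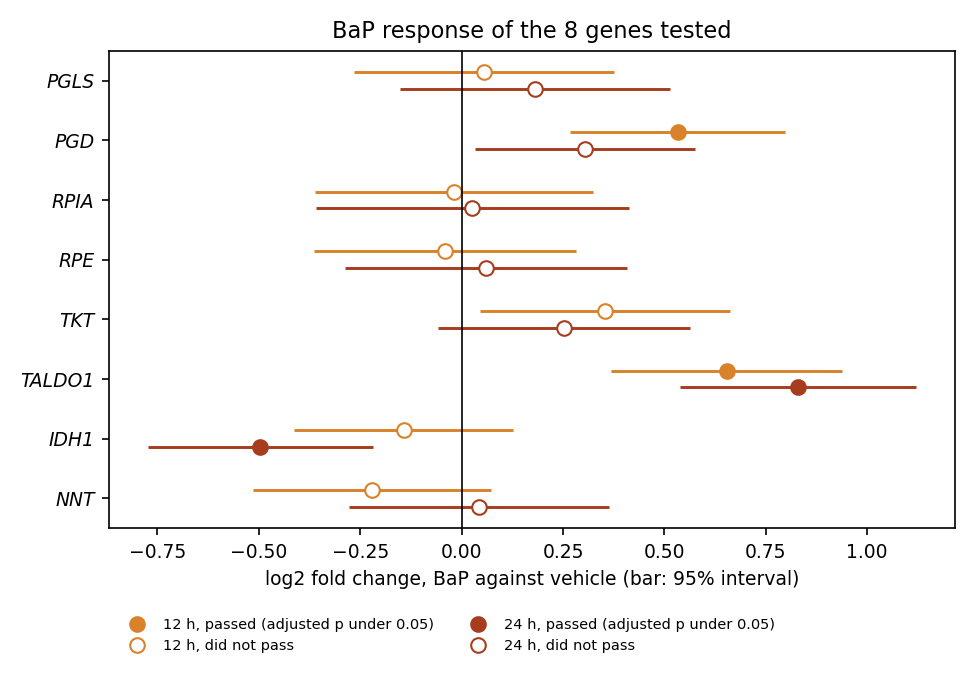
Log2 fold change of BaP against vehicle for the 8 genes tested, at 12 h and 24 h, with 95% intervals (n = 2 libraries per group); filled points passed at an adjusted p under 0.05. PGD at 12 h (0.53), TALDO1 at both times (0.65 and 0.83) and IDH1 at 24 h (-0.50) are filled, and the other intervals cross 0 except those of TKT at 12 h and PGD at 24 h.

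Whether the response differed between the times was tested directly as the 24 h fold change minus the 12 h fold change. In edgeR's test 0 of the 8 genes passed, against 0.543% of all genes, and 0 had an unadjusted p under 0.05. DESeq2 also called 0 of the 8. The largest difference was that of IDH1, at -0.35 ± 0.18 (95% interval -0.74 to 0.03, adjusted p = 0.57). For PGD the difference was -0.23 ± 0.18 and for TALDO1 it was 0.18 ± 0.19, so a difference between the times was not shown for PGD, although it passed at 12 h alone. In vehicle at 24 h against 12 h 0 of the 8 passed in edgeR and in DESeq2, against 3.28% of all genes, and 1 had an unadjusted p under 0.05. That gene was PGLS (0.46 ± 0.15 on the log2 scale, adjusted p = 0.13), with both vehicle 24 h libraries above both vehicle 12 h libraries.

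The deposited transcript tables divide each count among annotated transcripts. TALDO1, PGLS, RPIA and ME1 had 1 transcript each in the annotation the authors used. Names and types of transcripts were taken from a later GENCODE annotation, matched by transcript ID. PGD-201 held 84.7% of the PGD count over all libraries (77.5% to 92.4% in single libraries) and IDH1-201 held 96.9% of the IDH1 count. NNT-201 held 75.9% and NNT-202 held 19.7% of NNT, and RPE-202 held 52.4% of RPE. TKT was the most divided. TKT-201, a protein-coding form, held 32.4% over all libraries, and TKT-204, annotated as subject to nonsense-mediated decay, held 21.1%. In vehicle 24 h replicate 1 the share of TKT-201 was 4.48%, against 42.9% in replicate 2, and that of the protein-coding TKT-202 was 28.5%, against 1.22%. The other 6 libraries had 28.0% to 44.6% in TKT-201. TKT-202 held 7.51% and 13.5% in the BaP 12 h libraries and next to none in vehicle 12 h and BaP 24 h.

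**Figure D4:**
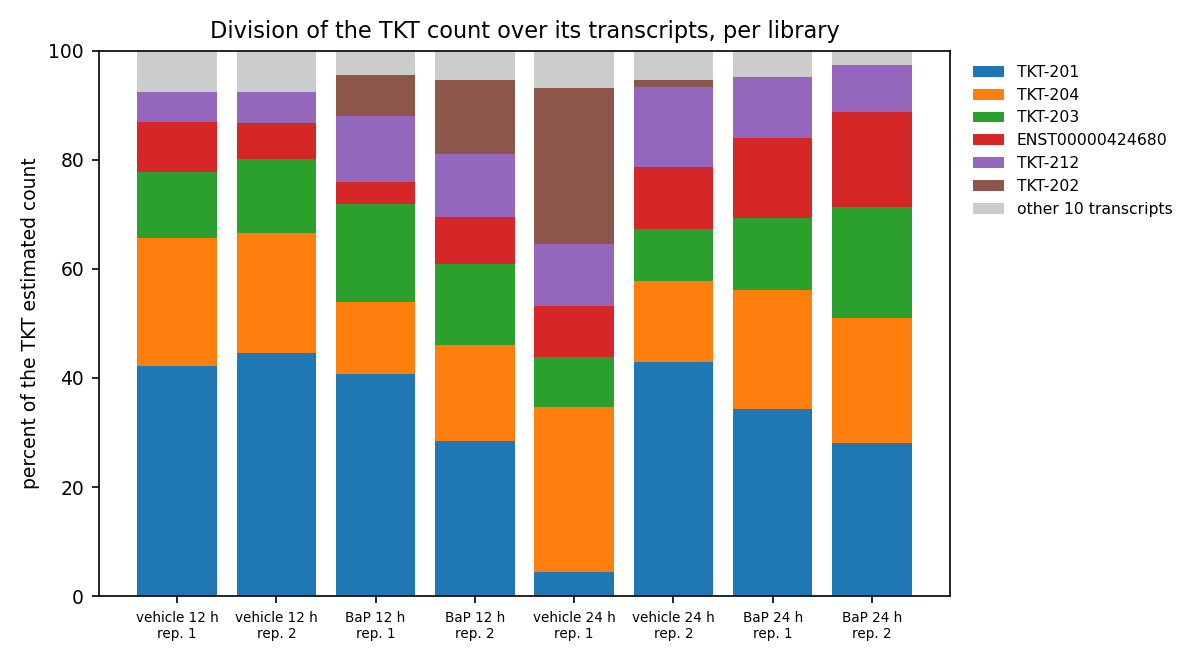
Percent of the TKT estimated count assigned to each transcript in each library, with the transcripts in order of their share over all libraries. Vehicle 24 h replicate 1 stands apart, with 4.48% in TKT-201 and 28.5% in TKT-202, against 42.9% and 1.22% in vehicle 24 h replicate 2.

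Transcript usage was tested for the 3 genes with more than 1 transcript above 10% of the count, TKT, RPE and NNT. With BaP at 12 h 0 of 3 passed (adjusted p = 1 for each in edgeR's gene-level F-test), against 0.307% of 6831 genes. At 24 h 0 of 3 passed, with adjusted p between 0.96 and 1.0, against 0.922% of genes. By the Simes test 0 of 3 passed at either time, and the smallest unadjusted p of the 3 genes was 0.65 at 12 h and 0.71 at 24 h. At 24 h TKT passed without vehicle 24 h replicate 2 (adjusted p = 0.016), which leaves the library with 4.48% in TKT-201 as the lone vehicle, and with no minimum share (adjusted p = 0.043). The RSEM division of reads among near-identical transcripts carries an error of its own, which the test does not hold.

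For the genes that passed, the 3 genes with the most similar profile were sought by Pearson's r of log2 CPM over the 8 libraries among 7117 other genes. The points share libraries and groups, so r is a description. TALDO1 was followed most closely by MGST1 (r = 0.984), a microsomal glutathione transferase, then by ZFAND2A (0.980) and NQO1 (0.980), a quinone reductase. MGST1 rose by 0.88 at 12 h and 1.09 at 24 h on the log2 scale (edgeR adjusted p = 2.0e-04 and 1.2e-04). PGD was closest to GCNT2 (0.981), SCO1 (0.977) and IL17RA (0.973), of which GCNT2 rose at 12 h (log2 fold change 0.59, adjusted p = 0.010). IDH1 was closest to MAP3K4 (0.980), SKP2 (0.980), a subunit of a ubiquitin ligase, and JADE1 (0.979), of which SKP2 fell at 24 h (-0.93, adjusted p = 0.0077).

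Of 12 other genes of the pentose phosphate pathway and of ribose metabolism 10 were tested, and edgeR called 0 at 12 h and 0 at 24 h in the fit to all 8 libraries, with medians of -0.13 and -0.08 and 2 and 3 genes at an unadjusted p under 0.05. DESeq2 called 0 at both times. Of all genes tested edgeR called 8.25% at 12 h and 5.3% at 24 h, so 0 of 10 lay near that share. H6PD, which runs the oxidative branch in the endoplasmic reticulum, stood at 63.4 ± 1.38 CPM in vehicle 12 h and 45.6 ± 1.91 in BaP 12 h (log2 fold change -0.48 ± 0.15, adjusted p = 0.069). It passed in 5 of 15 alternatives at 12 h, with no filter on low counts (adjusted p = 0.0061), a replicate block (0.038), the 4 libraries of that time alone (0.0033), and without either BaP 24 h library (0.0065 and 0.0080). SHPK, the kinase of sedoheptulose, had a log2 fold change of -0.50 ± 0.16 at 24 h (edgeR adjusted p = 0.079), and it passed at that time with no filter (0.018), with the block (0.047) and without BaP 24 h replicate 1 (0.047). Without that library H6PD passed at 24 h too (-0.52, adjusted p = 0.018). The transketolase relatives TKTL1 and TKTL2 held 1 and 0 counts in all. PRPS1 and PRPS2, which start nucleotide synthesis from ribose 5-phosphate, had log2 fold changes of -0.18 ± 0.13 and -0.23 ± 0.16 at 12 h, and of 0.18 ± 0.14 and -0.35 ± 0.20 at 24 h, none of which passed. H6PD, SHPK, PRPS1 and PRPS2 were named after their values were seen.

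A further list held other enzymes that make NADPH, together with folate-cycle enzymes and NAD kinases, not all of which make it themselves. Of 12 tested, 1 was higher and 2 were lower at 12 h (median -0.12). At 24 h 1 was higher and 1 lower (median -0.02). Among all genes tested 3.41% were higher and 4.84% lower at 12 h, and 3.11% and 2.2% at 24 h. ALDH1L1, the formyltetrahydrofolate dehydrogenase of the folate cycle, rose from 26.8 ± 3.57 to 41.8 ± 3.57 CPM at 12 h (log2 fold change 0.64 ± 0.13, edgeR adjusted p = 0.0055) and from 33.5 ± 1.72 to 48.4 ± 0.524 at 24 h (0.54 ± 0.14, adjusted p = 0.037). GLUD1, the mitochondrial glutamate dehydrogenase, fell by 0.54 and 0.71 on the log2 scale (adjusted p = 0.018 and 0.0058), with reads that near-identical copies of the gene could share. MTHFD1L, the mitochondrial formyltetrahydrofolate synthetase, which does not itself make NADPH, fell by 0.59 at 12 h (adjusted p = 0.0068), and its value at 24 h was 0.22 ± 0.13 (adjusted p = 0.39). The difference between the times of MTHFD1L was 0.80 and did not pass (adjusted p = 0.068). With no filter on low counts it passed in edgeR (0.80, adjusted p = 0.020), and without BaP 24 h replicate 1 the value was 0.86. IDH2, the mitochondrial relative of IDH1, stood at -0.01 ± 0.11 at 24 h (adjusted p = 0.97), while IDH1 stood at -0.50.

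These calls rested on single libraries as well. The ALDH1L1 call at 12 h had an adjusted p of 0.13 without BaP replicate 2, 0.075 without vehicle replicate 2 and 0.13 with thinned libraries. At 24 h the ALDH1L1 call was lost in 8 of 15 alternatives, with the highest adjusted p, 0.32, without vehicle 24 h replicate 1. The GLUD1 call was lost at 12 h in the absence of BaP replicate 1 or of either vehicle library (adjusted p between 0.060 and 0.35), and at 24 h in the absence of either vehicle library (0.072 and 0.056). That of MTHFD1L was lost without BaP 12 h replicate 1 (0.13).

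A list of reductases, with the fatty acid synthase gene, was chosen for enzymes that use NADPH. Of 13 tested, 8 were higher and 0 lower at 12 h, their median being 0.77 on the log2 scale. At 24 h 7 were higher and 1 lower, with a median of 0.56. The shares over all genes tested were 3.41% higher and 4.84% lower at 12 h, and 3.11% and 2.2% at 24 h. AKR1B10, an aldo-keto reductase, rose from 31.0 ± 2.20 to 197 ± 0.0643 CPM at 12 h and from 18.7 ± 4.53 to 129 ± 19.8 at 24 h (log2 fold change 2.67 ± 0.15 and 2.84 ± 0.16). PTGR1, which reduces prostaglandin and other enones, rose by 2.02 ± 0.13 and 2.83 ± 0.15. AKR1C1, whose reads its near-identical AKR1C relatives could share, rose by 1.86 ± 0.20 and 1.87 ± 0.20, and TXNRD1, the cytosolic thioredoxin reductase, by 1.39 ± 0.13 at 12 h. NQO1 rose by 1.55 ± 0.15 at 24 h. The 8 higher genes at 12 h included NQO2 (0.65 ± 0.16, edgeR adjusted p = 0.016), whose enzyme takes dihydronicotinamide riboside rather than NADPH. The gene that fell at 24 h was FASN, fatty acid synthase (-0.77, edgeR adjusted p = 0.0092). The count of higher genes stayed between 6 and 8 at 12 h and between 6 and 7 at 24 h in every alternative run, and the count of lower genes at 12 h was 1 in 6 of the 15. At 24 h the count of lower genes was 0 without either vehicle 24 h library and in the fit to 4 libraries.

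The NRF2 reference genes GCLC, GCLM, OSGIN1, SLC7A11 and HMOX1 rose in 5 of 5 cases at 12 h (median log2 fold change 1.90). At 24 h 3 of 5 rose (median 0.59). Over all genes tested 3.41% were higher at 12 h and 3.11% at 24 h. GCLM, the modifier subunit of glutamate-cysteine ligase, rose by 2.38 ± 0.15 at 12 h and 0.87 ± 0.17 at 24 h. Set beside these, TALDO1 stood at 0.65 and 0.83 and PGD at 0.53 and 0.30. The count of 5 held in every alternative at 12 h, and at 24 h the count fell to 0 without vehicle 24 h replicate 1. These lists were chosen with earlier results of the same libraries known, so their counts are descriptions.

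**Figure D5:**
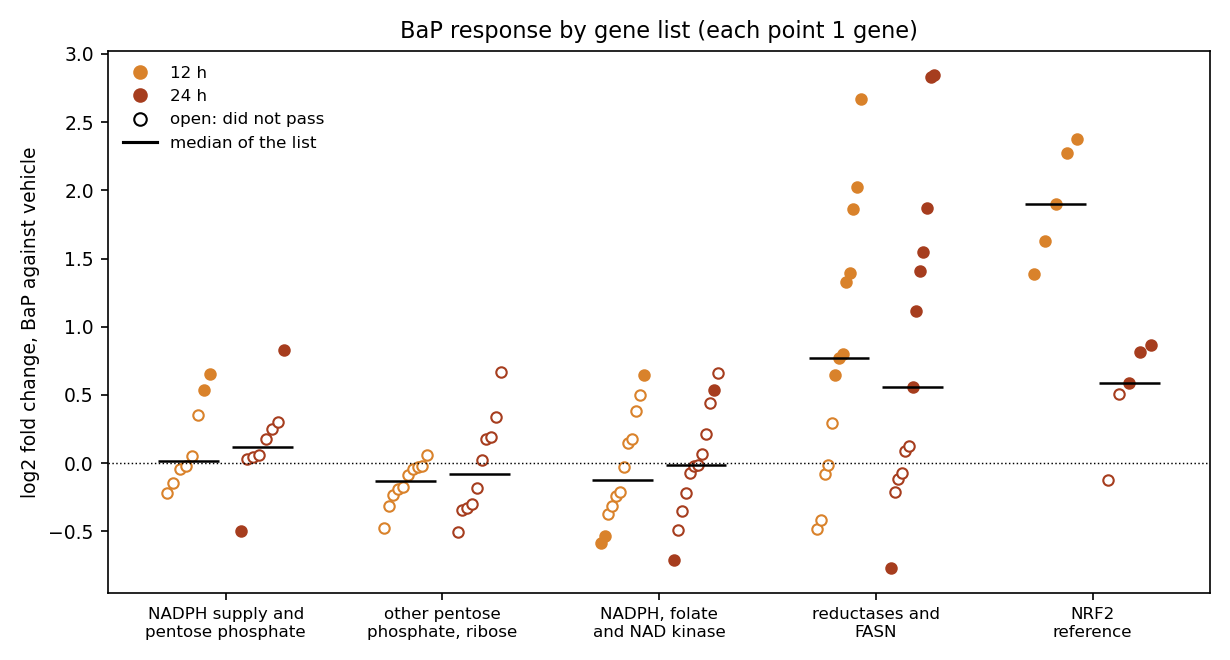
Log2 fold change of BaP against vehicle for each tested gene of 5 lists at 12 h and 24 h; filled points passed at an adjusted p under 0.05 and bars mark the median of a list. The medians of the NADPH supply and pentose phosphate genes (0.02 and 0.12) lie near 0, and those of the reductases with FASN (0.77 and 0.56) and of the NRF2 reference genes (1.90 and 0.59) lie higher.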

How the data were processed

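The 8 libraries, 2 in each of 4 groups, were made from poly-A RNA of HepG2 cultures. Reads were aligned with Bowtie 0.12.7 and assigned with RSEM 1.1.7, per the submitters' processing notes, which also name edgeR; the annotation was Ensembl release 58, per the file names as deposited. The genome build, the strand setting and the level of RSEM's intervals are not given in the sources used here. The authors deposited estimated counts per gene and transcript, without normalisation, and the fraction of transcript molecules that each gene makes up, corrected for length, which was scaled to give TPM. Posterior mean counts and fractions were deposited too.

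Estimated counts were rounded and tested in R 4.3.3 with edgeR 4.0.16. Genes passed filterByExpr (minimum count 10, minimum total 15), which kept 14746 of 49733, and TMM factors set the library sizes. A robust quasi-likelihood model with 1 mean per group was fitted to all 8 libraries, with Benjamini-Hochberg adjustment over all genes tested and a threshold of 0.05. The SE is the fold change divided by the square root of F. BaP was compared with vehicle at each time, the 2 responses were compared with each other, and vehicle was compared between times. For transcript usage the F-test of edgeR's diffSpliceDGE was run per gene on transcripts with at least 10% of their gene's counts. The tests were checked on simulated data, in which recovery was required for large changes only. Power for changes of the size seen in the 8 genes was not set by that check.

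All 9 members are named, and from each other list at most 4 genes per comparison that passed, by smallest p. FASN, ME2, ME3, IDH2, H6PD, SHPK, NQO2, ALB, AHSG, APOA2, PRPS1, PRPS2, TKTL1, TKTL2 and CD68 were named outside this rule, after their values were seen. SRXN1 and PECAM1 matched no ID, and 1 gene of the reductase list is not reported here. The members and lists were chosen with earlier results of these data known. Alternatives were DESeq2's size factors and Wald test (1.42.0), no filter, edgeR's exact test, a replicate block, a fit to 4 libraries, thinning to 2592234 counts, and leaving out each library. Usage was rerun with the Simes test, without the minimum share, with the block, on posterior mean counts and without each library.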

Additional observations from a re-analysis of the deposited data

Results flagged for a closer look

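By edgeR's test, the response to BaP differed between 24 h and 12 h for 3 of the 5 NRF2 reference genes tested. Of the 8 NADPH supply and pentose phosphate genes 0 passed that test, against 0.543% of all genes tested. The NRF2 reference list was chosen with earlier results of the same libraries known, so its count is a description. For GCLM, the modifier subunit of glutamate-cysteine ligase, the 24 h fold change minus the 12 h fold change was -1.51 ± 0.23 on the log2 scale (adjusted p = 0.0031, n = 2 libraries per group). For OSGIN1 it was -1.46 ± 0.17 (adjusted p = 2.8e-04). For HMOX1, which makes biliverdin from haem, it was -1.75 ± 0.25 (adjusted p = 0.0039), and this call was lost without vehicle 24 h replicate 1 (-1.63, adjusted p = 0.057). HMOX1 stood at 40.3 ± 5.87 CPM in vehicle 12 h and 125 ± 11.5 in BaP 12 h, and at 30.6 ± 2.90 and 30.7 ± 9.69 at 24 h. With no filter on low counts 5 of the 5 NRF2 reference genes passed, with SLC7A11 at -1.40 and GCLC at -0.80. SLC7A11 also passed in DESeq2's Wald test (-1.46, adjusted p = 0.019), with a replicate block (-1.53) and with thinning (-1.91).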

How the results depend on the processing

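Calls of PGD, TALDO1 and IDH1 kept their direction in every alternative run and lost significance as given beside each gene. DESeq2 called 794 genes at 12 h. With no filter on low counts 1238 genes were called at 24 h, 240 for the difference between times and 805 in vehicle. Thinning called 633 at 12 h, 442 at 24 h and 45 for the change of response, with 1 of the 8 genes at 24 h. A fit to 4 libraries called 379 at 24 h, again with 1 of the 8, and 853 for vehicle over time, where edgeR's exact test called 786. With no minimum share 1 gene (TKT) was called for usage at 24 h. The exact test and the fit to 4 libraries give no value for the difference between times, which needs all 4 groups.

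Leaving out 1 library gave 424 to 1667 genes at 12 h, 169 to 1956 at 24 h, 28 to 348 for the difference between times and 87 to 998 in vehicle over time. It gave 0 to 3 of the 8 genes at 12 h, 0 to 2 at 24 h, and 0 to 1 for usage at 24 h. A fit left with 1 library in a group takes its spread from the other groups. The cause was not tested.

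Signs turned only among values that passed in no fit. With no filter they were RPIA at 24 h (-0.0032) and TKT over time in vehicle (-0.0077). With thinning they were PGLS (-0.25) and RPE (0.24) at 12 h, RPE (-0.077) and RPIA (-0.28) at 24 h, and the differences of RPE (-0.31) and RPIA (-0.17). With 1 library left out, more signs turned. At 12 h PGLS ran from -0.14 to 0.23, RPE from -0.29 to 0.14 and RPIA from -0.099 to 0.055. At 24 h NNT ran from -0.059 to 0.20, RPE from -0.035 to 0.18 and RPIA from -0.13 to 0.19. The differences ran from -0.046 to 0.32 (PGLS), -0.076 to 0.35 (RPE), -0.12 to 0.21 (RPIA), -0.083 to 0.38 (TALDO1) and -0.26 to 0.053 (TKT). In vehicle over time RPE ran from -0.063 to 0.16 and TKT from -0.066 to 0.11.

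With a replicate block 1229 genes were called at 12 h and 738 at 24 h, and 2 of the 8 genes at each time as without it. Same-numbered libraries deviated together in vehicle 12 h and BaP 12 h (r = 0.42) and not in the other pairs of groups (-0.24 to 0.064). The labels do not say that a number marks a shared experiment, so the main fit had no block. The block sets 1 shift for both times, so a pairing at 12 h alone was not tested. Depth limits RPIA most, with 33 counts in BaP 24 h replicate 1.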
